A study of Mus musculus with 20 samples.

Results

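Mitogen-activated protein kinases (MAPKs) are switched on when both a threonine and a tyrosine of their activation loop are phosphorylated. Dual specificity MAPK phosphatases remove both phosphates and so switch the kinases off. In macrophages this brake is known for limiting the response to bacterial products, since several of the phosphatase genes are themselves induced by the kinases they restrain. The nuclear inducible enzymes are Dusp1 (MKP-1), Dusp2 (PAC-1), Dusp4 (MKP-2) and Dusp5, of which Dusp5 acts on ERK. Dusp6 (MKP-3) holds ERK in check in the cytoplasm, Dusp10 (MKP-5) and Dusp16 (MKP-7) act on p38 and JNK, and Dusp14 (MKP-6) is a small enzyme without the kinase-binding domain of the others. These 8 genes were taken by symbol from a table of 33243 genes, and all 8 were among the 16632 genes with enough counts for testing.

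The genes were measured by bulk RNA sequencing of dural CNS-associated macrophages (dCAMs), sorted as CD45int CD11b+ CD206int-high cells from Ccr2CreERT2/+ R26tdT/tdT mice. Tamoxifen turns on tdTomato (tdT) in these mice wherever Ccr2 is then expressed, so tdT+ cells descend from cells that expressed Ccr2 and tdT− cells do not carry that mark, whether for lack of Ccr2 or of recombination. All 10 mice, controls included, had first been given BLZ945, which blocks CSF1R, for 7 days (200 mg per kg), with tamoxifen at 2 mg per day on the last of these days and again 2 and 4 days later. After 8 weeks, 5 mice (numbers 54, 56, 59, 60 and 61) were injected with lipopolysaccharide (LPS) at 2.5 mg per kg and 5 (numbers 174, 175, 177, 178 and 179) with PBS (CTL), and the dura was taken 12 h later. Each mouse gave a tdT− and a tdT+ library, which makes 4 groups of 5. The labels give no age, and titles carry the letter F for 5 mice and M for 5.

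Library totals ran from 6017650 to 12208203 counts in CTL mice and from 12073566 to 18925908 in LPS mice, so depth moved with treatment in part and the 2 cannot be told apart. The tdT− CTL libraries held 7376 to 9807 genes with over 3 counts, against 10390 to 11572 in tdT+ CTL libraries and 11682 to 13118 in LPS libraries. Levels are given as CPM, counts of a gene per 1000000 counts of its library, scaled by TMM. Sums over markers were scaled by library size alone. All 9 macrophage markers were detected in every group. They summed to 13873 to 26687 CPM in tdT− CTL, 29321 to 34161 CPM in tdT+ CTL and 9335 to 16468 CPM in LPS libraries. Fibroblast markers summed to 10.5 to 4558 CPM in tdT− CTL, 144 to 380 CPM in tdT+ CTL and 68.6 to 357 CPM in LPS libraries. Monocyte markers summed to 598 to 1086 CPM in tdT− CTL and 168 to 476 CPM in tdT+ CTL libraries, and neutrophil markers to at most 170 CPM in CTL and 241 to 855 CPM in LPS libraries. In bulk RNA a lower share of cells that express a gene and less RNA of that gene per cell cannot be told apart. Per the labels the sample is the sorted library of a mouse, so the spread between libraries includes that between animals.

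Dusp1 was by far the most abundant member. The DNA around the start of 3 members is shown first because the results turn on them: Dusp1 for its level, Dusp2 for its calls and Dusp5 because its LPS and CTL libraries did not overlap in either population. Each run is 5′ to 3′ on the gene's strand, from 250 bases before to 50 bases after the RefSeq start (GRCm38.p6). Capitals mark matches to the motifs described after the runs.

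Dusp1, chr17:26508423-26508722, minus strand: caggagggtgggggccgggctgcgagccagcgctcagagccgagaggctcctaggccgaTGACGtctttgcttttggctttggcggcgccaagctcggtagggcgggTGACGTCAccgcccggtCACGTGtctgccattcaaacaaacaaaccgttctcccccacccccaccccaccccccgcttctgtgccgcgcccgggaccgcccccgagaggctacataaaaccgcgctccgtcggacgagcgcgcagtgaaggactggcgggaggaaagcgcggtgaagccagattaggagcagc

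Dusp2, chr2:127335909-127336208, plus strand: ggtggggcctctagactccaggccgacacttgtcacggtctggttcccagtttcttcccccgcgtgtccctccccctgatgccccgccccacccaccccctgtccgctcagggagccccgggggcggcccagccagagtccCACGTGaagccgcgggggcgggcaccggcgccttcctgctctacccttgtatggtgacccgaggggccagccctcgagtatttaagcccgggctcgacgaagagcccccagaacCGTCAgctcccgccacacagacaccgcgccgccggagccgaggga

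Dusp5, chr19:53528895-53529194, plus strand: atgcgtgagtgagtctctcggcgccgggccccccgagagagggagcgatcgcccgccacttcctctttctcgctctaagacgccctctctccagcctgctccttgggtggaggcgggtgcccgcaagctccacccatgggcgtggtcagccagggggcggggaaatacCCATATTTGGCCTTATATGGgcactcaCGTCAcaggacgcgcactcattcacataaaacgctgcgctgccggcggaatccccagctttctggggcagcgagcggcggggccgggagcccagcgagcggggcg

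The search covered both strands for the cAMP response element (TGACGTCA), its shorter core TGACG, the AP-1 site TGANTCA, the E-box CACGTG, the TATA box TATAAA, and the CArG box and NF-kB consensus by name. Dusp1 held the full cAMP response element at -143 to -136 from its start, a match present in 1.79% of the 32841 promoter windows of the same length. Its 3 copies of the core include the 2 that lie inside that element. Dusp5 held 2 CArG boxes side by side, from -82 to -63, and 1.63% of all windows held any. Dusp2 and Dusp1 each held 1 E-box, which 7.15% of windows held. None of the 7 members with a window matched AP-1, NF-kB or TATA, which were found in 7.81%, 8.46% and 13.6% of windows. Such matches describe letters in a window, and no match in a window says nothing of the factor. Dusp4 had no entry in the sequence table.

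Levels were compared between genes as CPM per kilobase of exon, using GENCODE M21 exon lengths. Dusp1 stood at 1227 (tdT−) and 987 (tdT+) CPM per kb in CTL mice, and at 1402 (tdT−) and 1602 (tdT+) CPM per kb in LPS mice. It made up 81.0% to 93.0% of the summed per-length level of the 8 genes in every library, and ranked 17 of 16632 genes by mean CPM. Below it came Dusp2, Dusp6 and Dusp5, whose order changed between groups. In tdT− CTL libraries the means were 90.6, 61.5 and 31.0 CPM per kb in that order, and the ranges of neighbours overlapped. In tdT+ CTL libraries Dusp6 came first with 100 CPM per kb (range 56.2 to 154), above every value of Dusp2 (14.4 to 39.0), while Dusp2 overlapped Dusp5 (10.7 to 21.4). In tdT− LPS libraries Dusp2 (88.5 to 114 CPM per kb) exceeded Dusp6 (48.4 to 57.5) without overlap, and Dusp5 (54.3 to 103) overlapped both. In tdT+ LPS libraries all 3 overlapped, with means of 87.7 for Dusp2, 70.3 for Dusp5 and 60.8 CPM per kb for Dusp6. Dusp10 and Dusp16 stood at 0.539 to 5.17 CPM per kb as group means, and Dusp4 and Dusp14 at no more than 0.593.

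**Figure D1:**
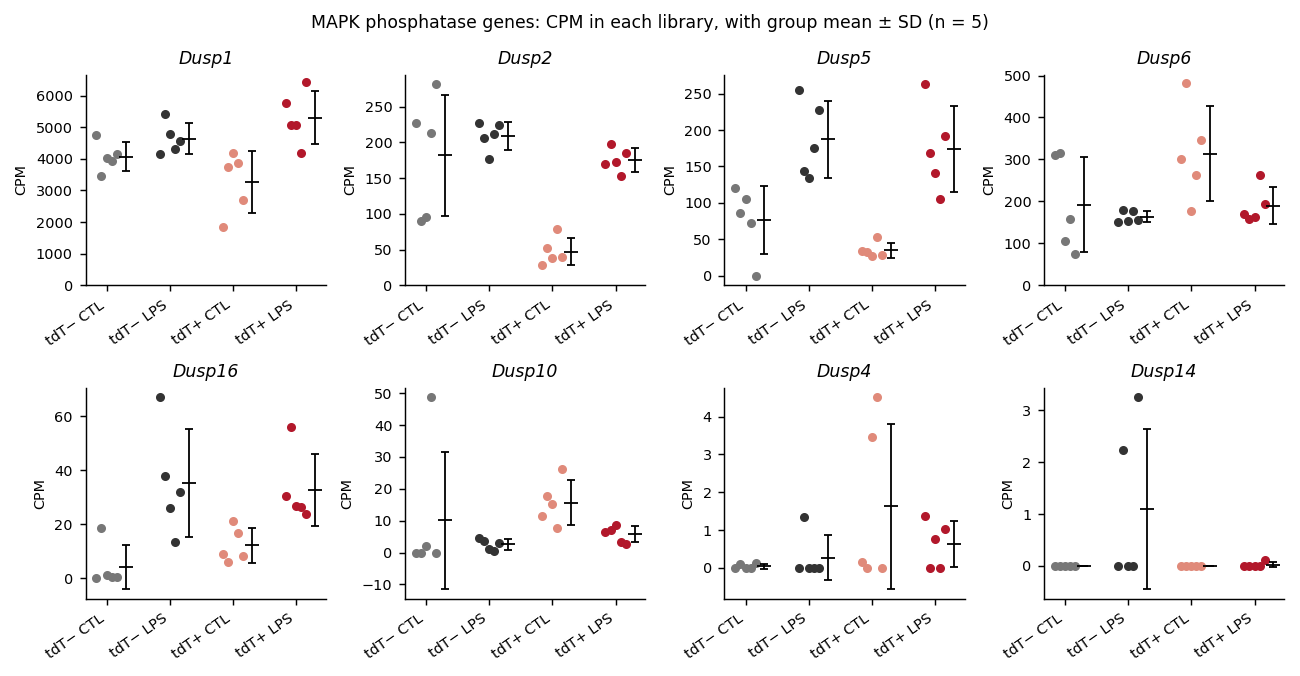
CPM (linear axis, a separate scale for each gene) of the 8 phosphatase genes in each of the 20 libraries, with the mean ± SD of each group of 5 beside the points; points stand in the order of the mouse numbers. Dusp1 lies between 1837 and 6434 CPM, the tdT+ CTL libraries are lowest for Dusp2 at 28.9 to 78.2 CPM, and Dusp4 and Dusp14 stay under 5 CPM.

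With edgeR 5 comparisons were made: LPS against CTL within each population, tdT+ against tdT− within each treatment, and the difference of the LPS effects (tdT+ minus tdT−). A gene is called where its adjusted p was under 0.05 and its log2 fold change exceeded 1 in size. LPS against CTL called 0 of the 8 members in tdT− dCAMs, where 11.5% of all genes tested were called, and 1 (Dusp2) in tdT+ dCAMs, where 5.89% were. The tdT+ against tdT− comparison called 1 member (Dusp2) in CTL mice, against 4.28% of all genes, and 0 in LPS mice, against 0.0301%. The difference of the LPS effects called 0, against 1.26%. Among the comparisons with 0 calls, 2 members had an unadjusted p under 0.05 in tdT− dCAMs (Dusp14 and Dusp16). In LPS mice 1 did (Dusp14), and in the difference 2 did (Dusp1 and Dusp2). Of all 16632 genes, 5015, 899 and 2181 had such a p in these comparisons. DESeq2 called 1, 0 and 1 member there, for which the share of all genes is not given here. With 8 genes, the edgeR counts lie near the share of all genes, and they set no member apart.

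Dusp2, a nuclear phosphatase first known from activated blood cells, was the member called. In tdT+ CTL libraries it stood at 28.9, 52.0, 37.5, 78.2 and 39.1 CPM (mice 174, 175, 177, 178 and 179), and in tdT+ LPS libraries at 170, 198, 173, 153 and 185 CPM (mice 54, 56, 59, 60 and 61). All 5 LPS libraries were above all 5 CTL libraries. The gene rose by 1.90 ± 0.32 on the log2 scale (SE of the fit with 5 libraries a group; adjusted p = 0.000402). The call held in all 20 alternative fits, with log2 fold changes from 1.74 to 2.14.

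In tdT− dCAMs the same gene stood at 227, 90.0, 95.9, 213 and 282 CPM in CTL and at 227, 206, 177, 211 and 224 CPM in LPS libraries. Here the LPS libraries lay within the CTL range, and they were much closer together, with a coefficient of variation of 9.53% against 46.7%. The log2 fold change was 0.21 ± 0.31 (adjusted p = 0.703, 95% interval -0.44 to 0.85).

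Between populations of the same CTL mouse, Dusp2 was lower in the tdT+ library in 5 of 5 mice, with log2 ratios of -2.95, -0.79, -1.34, -1.44 and -2.83 for mice 174, 175, 177, 178 and 179. Over all genes, 9.46% had the same sign in 5 of 5 CTL mice. The log2 fold change of tdT+ against tdT− dCAMs was -1.94 ± 0.32 (adjusted p = 0.00101). The tdT+ CTL libraries serve in both of the calls on Dusp2, so these are not independent. The call was lost when the 10 CTL libraries were fitted alone (adjusted p = 0.19), and with the mouse as a block in such a fit (log2 fold change -1.87, adjusted p = 0.642), fits that called 7 and 3 genes in all. It held in the other 19 alternatives, among them limma-voom and limma-trend with the mouse as a block, and over all 21 the adjusted p ran from 1.44e-07 to 0.642.

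In LPS mice Dusp2 was again lower in the tdT+ library of 5 of 5 mice, a sign pattern that 9.9% of all genes had, but the log2 ratios were only -0.42, -0.06, -0.04, -0.46 and -0.28 for mice 54, 56, 59, 60 and 61. The fitted log2 fold change was -0.25 ± 0.31 (adjusted p = 1.0, 95% interval -0.90 to 0.39). All 5 ratios of the LPS mice were nearer 0 than those of the CTL mice, and the share of all genes that separate in this way is not given here. The LPS effect was larger in tdT+ dCAMs by 1.69 ± 0.44 on the log2 scale, which did not pass the threshold (adjusted p = 0.064, unadjusted p = 0.000982). Comparing the per-mouse log2 ratios directly, a paired test added after the data were seen, gave a difference of 1.62 (two-sided exact permutation p = 0.00794, the smallest that 5 against 5 mice allow, 1 of 6 members so tested).

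Monocyte markers moved with Dusp2 between the CTL populations. Of the 6 listed, Ccr2, Plac8 and Vcan were among those called lower in tdT+ CTL libraries, and with LPS in tdT+ dCAMs Plac8 and Vcan were called higher and Ccr2 lower. The summed monocyte level was 160 to 286 CPM in tdT+ LPS libraries, where Dusp2 stood at 153 to 198 CPM, and 168 to 476 CPM in tdT+ CTL libraries, where it stood at 28.9 to 78.2 CPM. Dendritic cell markers summed to 13.1 to 551 CPM in tdT− and 7.9 to 40.8 CPM in tdT+ libraries of CTL mice, and to 227 to 659 CPM and 4.64 to 17.0 CPM in those of LPS mice. In tdT− dCAMs the mean of Ccr7 was 46.3 CPM in CTL and 401 CPM in LPS libraries. Flt3 (86.8 and 8.44 CPM) and Zbtb46 (57.8 and 7.99 CPM) went the other way, and none of these was called. In the tdT− CTL libraries of mice 174, 175, 177, 178 and 179, Dusp2 stood at 227, 90.0, 95.9, 213 and 282 CPM. Their dendritic cell sums were 551, 331, 29.0, 48.8 and 13.1 CPM in that order. Their monocyte sums were 1086, 598, 599, 605 and 996 CPM. Neutrophil markers S100a8 and Mmp8 were called higher with LPS in both populations, while Ly6g stayed under 1 CPM on average in every group. The other listed neutrophil markers were not called and did not move together. Their log2 fold changes in tdT− and tdT+ dCAMs were -1.97 and -4.15 for S100a9, 2.00 and -2.22 for Retnlg, and 6.17 and 1.95 for Cxcr2. The part of these cells in the Dusp2 values was not tested.

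**Figure D2:**
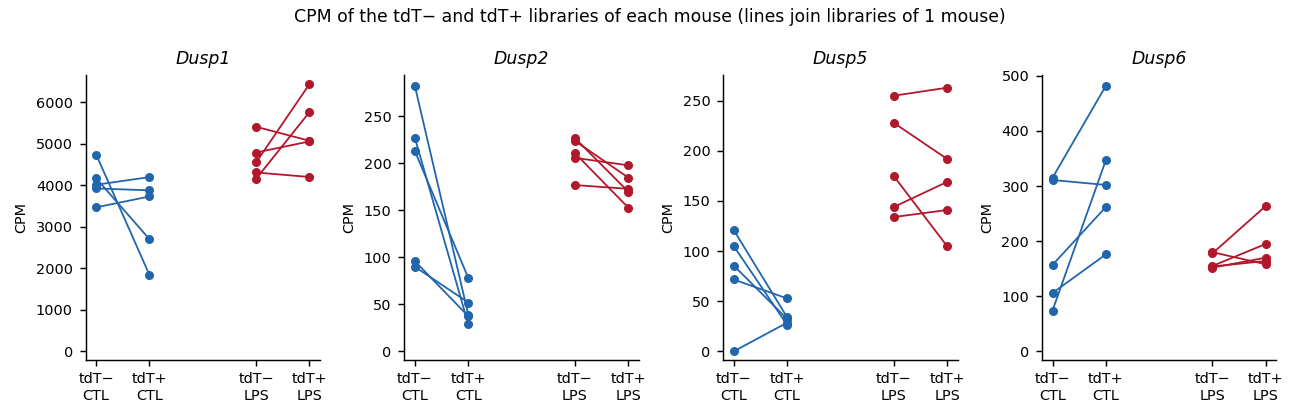
CPM (linear axis) of Dusp1, Dusp2, Dusp5 and Dusp6 in the tdT− and tdT+ library of each mouse, joined by a line, for the 5 CTL mice (blue) and the 5 LPS mice (red). All 5 blue lines of Dusp2 fall from 90.0 to 282 CPM down to 28.9 to 78.2 CPM, whereas the red lines are nearly flat; the tdT− CTL library of mouse 179 lies at 0 for Dusp5.

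Dusp1, the p38 and JNK phosphatase that is itself an immediate early gene, was high without LPS and differed little between groups. Per the paper's methods, dura was digested with collagenase before cells were sorted. The part of this step in the level of Dusp1 was not tested. Its CPM was 4738, 3467, 4011, 3923 and 4166 in tdT− CTL and 4155, 5406, 4787, 4306 and 4549 in tdT− LPS libraries. These ranges overlapped, with a log2 fold change of 0.19 ± 0.17 (adjusted p = 0.467, 95% interval -0.16 to 0.54). In tdT+ CTL libraries it stood at 1837, 3729, 4195, 3876 and 2699 CPM, and in tdT+ LPS libraries at 5760, 5070, 5054, 4198 and 6434 CPM. The highest CTL and the lowest LPS library met within 3 CPM without crossing, and they did cross when CPM were scaled by library size alone (4280 CPM in CTL mouse 177 and 4177 CPM in LPS mouse 60). The log2 fold change of 0.70 ± 0.17 had an adjusted p of 0.0118, as 6.61% of all genes had an adjusted p under 0.05, but did not reach the fold required for a call. Its adjusted p ran from 0.00612 to 0.0564 over the alternatives, of which limma-trend with the mouse as a block gave 0.00612. The exons of Dusp1 share 11 bases with Ergic1 on the other strand. The value rested in part on mouse 174, without which it was 0.53. Between populations Dusp1 was lower in the tdT+ library in 3 of 5 CTL mice and higher in 3 of 5 LPS mice, with log2 fold changes of -0.31 ± 0.17 and 0.19 ± 0.17 that were not called.

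Dusp5, the nuclear phosphatase that is specific for ERK, stood at 121, 85.6, 105, 71.7 and 0 CPM in tdT− CTL libraries and at 255, 144, 134, 175 and 228 CPM in tdT− LPS libraries. In tdT+ dCAMs it stood at 34.1, 32.4, 26.5, 52.8 and 28.6 CPM in CTL and at 263, 169, 141, 105 and 192 CPM in LPS libraries. Every LPS library exceeded every CTL library of its population. Such separation in either direction was seen for 12.6% of all genes in tdT− and 17.8% in tdT+ dCAMs, and among the members for Dusp5 in the first and Dusp1, Dusp2, Dusp5 and Dusp16 in the second. The log2 fold changes were 1.29 ± 0.74 in tdT− (adjusted p = 0.246) and 2.32 ± 0.76 in tdT+ dCAMs (adjusted p = 0.0817), neither of which was called.

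One library weighed on these Dusp5 fits. The tdT− CTL library of mouse 179 had 0 counts, which allows up to 3 counts, while the other tdT− CTL libraries had 635 to 852. Without mouse 179, the LPS change in tdT+ dCAMs was called (log2 fold change 2.25, adjusted p = 0.000109), and so was a lower level in tdT+ than in tdT− CTL libraries (log2 fold change -1.39, adjusted p = 0.0143, against -1.14 ± 0.74 with the mouse). The LPS change in tdT+ dCAMs was also called by DESeq2, by limma-voom with quality weights, and in the 10 tdT+ libraries alone, with adjusted p from 6.42e-05 to 0.323 over all alternatives. The fit with quality weights called 3155 genes in all, against 979 in the edgeR fit over 20 libraries. The exons of Dusp5 share 547 bases with an antisense gene, AC137853.2, and the counts cannot tell the strands apart if counting was unstranded.

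Dusp6, which restrains ERK in the cytoplasm and is commonly read as a gauge of ERK activity, did not follow Dusp2 and Dusp5. In CTL mice it stood at 311, 315, 106, 157 and 74.1 CPM in the tdT− libraries and at 302, 482, 176, 262 and 347 CPM in the tdT+ libraries. In LPS mice the values were 152, 180, 154, 178 and 155 CPM for tdT− and 170, 158, 164, 264 and 195 CPM for tdT+ dCAMs. The LPS libraries were close together and inside or below the CTL ranges. With LPS the log2 fold change was -0.24 ± 0.34 in tdT− (adjusted p = 0.687) and -0.72 ± 0.34 in tdT+ dCAMs (adjusted p = 0.244). The tdT+ library was the higher one in 4 of 5 mice of each treatment.

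Dusp16 and Dusp10, both phosphatases of p38 and JNK, were expressed at low levels and were not called. Dusp16 was 0, 18.7, 1.23, 0.452 and 0.654 CPM in tdT− CTL and 66.9, 37.8, 25.9, 13.6 and 32.1 CPM in tdT− LPS libraries, with a log2 fold change of 3.06 ± 1.04 (adjusted p = 0.0569). The overlap came from mouse 175, at 18.7 CPM, and without that mouse the change was called (log2 fold change 5.94, adjusted p = 0.000126). DESeq2, and limma-voom and limma-trend with the mouse as a block, called it as well (adjusted p = 0.0054, 0.000263 and 0.000611), and over all alternatives the adjusted p reached 0.215. That limma-voom fit called 4523 genes in all, against 1907 in the edgeR fit over 20 libraries. In tdT+ dCAMs Dusp16 was 8.93, 6.16, 21.3, 16.9 and 8.36 CPM in CTL and 30.4, 55.9, 26.9, 26.3 and 23.8 CPM in LPS libraries. The groups were apart, yet the log2 fold change of 1.40 ± 0.98 was not called (adjusted p = 0.502). The 10 tdT+ libraries fitted alone did call it (adjusted p = 0.0265).

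Dusp10 had 0 counts in 3 tdT− CTL libraries (mice 174, 175 and 179), 16 counts in mouse 177 and 431 counts, or 48.7 CPM, in mouse 178. In tdT+ CTL libraries it was 11.5, 17.8, 15.3, 7.65 and 26.3 CPM. LPS libraries lay between 0.574 and 4.56 CPM in tdT− and between 2.78 and 8.7 CPM in tdT+ dCAMs. The log2 fold changes with LPS were -1.96 ± 1.42 and -1.46 ± 1.40, and neither was called (adjusted p = 0.369 and 0.678). In tdT− dCAMs the sign rested on mouse 178, since without it the value was 2.42.

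Both of these weaker members spread most, relative to their mean, in tdT− CTL libraries. Dusp16 and Dusp10 were each higher in the tdT+ than in the tdT− library in 4 of 5 CTL mice, and the exceptions were mice 175 and 178. The population difference in CTL mice was not called (log2 fold change 1.55 ± 0.98 for Dusp16 and 0.63 ± 1.37 for Dusp10). With the mouse as a block it was called for both by limma-voom (3.60 and 5.01, adjusted p = 0.0231 and 0.0131) and limma-trend (3.23 and 4.03, adjusted p = 0.0197 and 0.0324), but for neither by edgeR within CTL mice (4.14 and 6.52, adjusted p = 0.642 for both). Of all genes, that limma-voom fit called 2245, edgeR within CTL mice 3 and edgeR over all 20 libraries 712. The population difference was also called for Dusp16 without mouse 175 (4.63, adjusted p = 0.00161) and for Dusp10 without mouse 178 (5.24, adjusted p = 0.0403). These tdT− CTL libraries were also those with the fewest detected genes.

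Dusp4 and Dusp14 were at or near 0. Dusp4 exceeded 3 counts in 6 of 20 libraries, with 30 and 43 counts in tdT+ CTL libraries of mice 177 and 178, 18 counts in the tdT− LPS library of mouse 56, and 18, 11 and 18 counts in tdT+ LPS libraries of mice 54, 59 and 61. Dusp14 had 0 counts in all 10 CTL libraries, 30 and 40 counts in the tdT− LPS libraries of mice 56 and 61, and 2 counts in 1 tdT+ LPS library. No fold change is given for either gene.

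**Figure D3:**
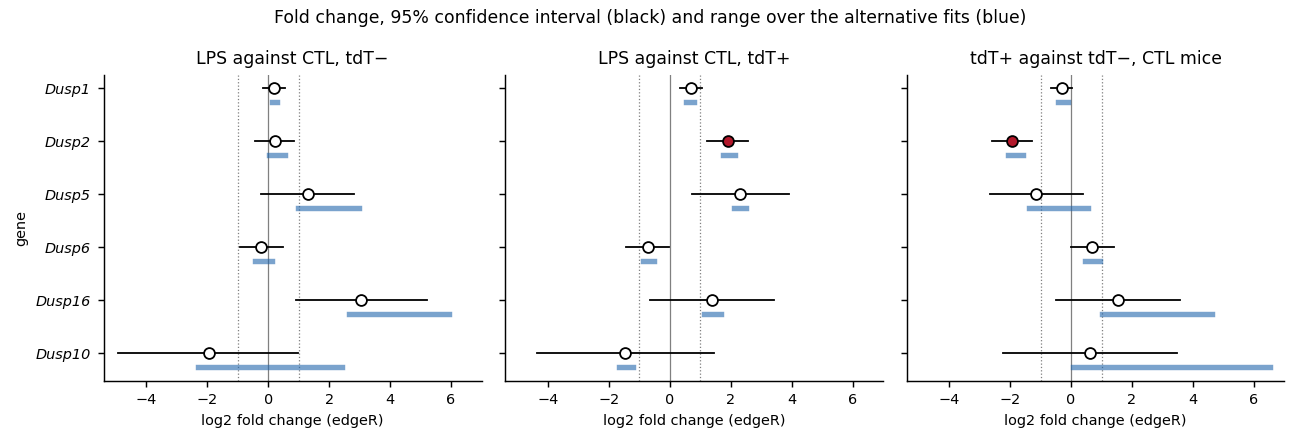
Log2 fold change (x axis) of the 6 members with measurable levels, for LPS against CTL in tdT− and tdT+ dCAMs and for tdT+ against tdT− in CTL mice: circles are the edgeR values (red where called), black lines their 95% confidence intervals and blue bars the lowest to highest value over the alternative fits; dotted lines mark -1 and 1. Dusp2 alone is called, at 1.90 in the second and -1.94 in the third panel. The blue bars cross 0 for Dusp6 and Dusp10 in the first panel and for Dusp5 in the third.

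Other genes of the pathway were taken from fixed lists. With LPS, 11.5% of all genes were called in tdT− and 5.89% in tdT+ dCAMs, the shares to set beside the counts of each list. None of the other typical MAPK phosphatases Dusp7, Dusp8 and Dusp9 was called in any comparison, and none of 10 atypical DUSP genes tested was. Dusp7, a cytoplasmic relative of Dusp6, was the highest of the first list, with 35.5 ± 49.5 CPM in tdT− CTL and 108 ± 35.8 CPM in tdT+ LPS libraries (SD, n = 5). Dusp11, Dusp3, Dusp22 and Dusp12 led the second.

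Of the 9 MAP kinases tested, Mapk3 (ERK1) fell in both populations (log2 fold change -1.28 in tdT− and -1.46 in tdT+ dCAMs, adjusted p = 0.00214 and 0.000813), and Mapk14 (p38α) fell by 1.18 on that scale in tdT+ dCAMs (adjusted p = 0.00483). Mapk9 (JNK2) was not called. Mapk8 and Mapk11 in tdT− and Mapk13 in tdT+ dCAMs were called higher, each from group means of at most 5 CPM. Of 20 upstream kinases, Map3k8 (TPL2), which feeds the ERK branch downstream of Toll-like receptors, rose in tdT− dCAMs by 1.64 (adjusted p = 0.0172), as did Map2k2 (MEK2) by 1.11 (adjusted p = 0.00643). Map3k5 (ASK1), which feeds p38 and JNK, fell in both (log2 fold change -2.62 and -2.85, adjusted p = 0.0187 and 0.0173). Map2k1 (MEK1) and Map3k3 were not called. Of 12 downstream kinases and mRNA-binding targets, Zfp36l2 fell in tdT+ dCAMs (log2 fold change -1.59, adjusted p = 8e-05), while Zfp36, Zfp36l1 and Mapkapk2 were not called.

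Feedback inhibitors of ERK and genes that follow ERK showed few calls. Spred1 rose in tdT+ dCAMs by a log2 fold change of 1.28 (adjusted p = 0.0124). It was the only one of 7 feedback inhibitors called there, where 5.89% of all genes were called. Errfi1, Spred2 and Spred3 were not called. Ccnd1 (cyclin D1) fell in both populations (log2 fold change -2.89 and -2.81, adjusted p = 0.00622 and 0.0111). Etv5, which like Dusp6 commonly follows ERK, was 131 ± 42.7 CPM in tdT+ CTL and 32.8 ± 7.01 CPM in tdT+ LPS libraries, and was not called (adjusted p = 0.128). Phlda1 and Epha2 were not called, and Fosl1 was called higher in tdT− dCAMs from group means of at most 2 CPM.

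The immediate early genes are the group to which Dusp1 is usually counted. Of 12, 8 fell with LPS in tdT− dCAMs (median log2 fold change -1.19, against 0.02 over all genes, of which 4.27% were called lower) and 3 in tdT+ dCAMs (median -0.94, against 0.01 and 2.52%). The 3 were Atf3 and the heat shock genes Hspa1a and Hspa1b, and these 3 were also among the 8. The heat shock genes are stress-induced and stand on the list, but are not immediate early genes in the strict sense. The count in tdT+ dCAMs was 5 under both other scalings. Egr1 went from 4609 ± 525 to 1814 ± 416 CPM in tdT− dCAMs (log2 fold change -1.35, adjusted p = 1.27e-05). Jun and Junb fell there too (-1.28 and -1.18), as did Nr4a1 (-1.19), and Atf3 fell in both populations (-4.58 and -4.39). In tdT+ dCAMs Egr1, Jun and Junb had log2 fold changes of -0.97, -0.99 and -0.91 (adjusted p = 0.000455, 0.0013 and 0.00237). These fell short of a call by the fold alone, while Nr4a1 was at -0.34 (adjusted p = 0.622). Fos, at 6429 ± 1142 and 3951 ± 743 CPM in tdT− CTL and LPS libraries, did not reach the fold for a call (log2 fold change -0.70). Ier2 fell by 1.03 in tdT− dCAMs and was the only listed gene outside the cell markers whose LPS effect was called as different between populations (1.08 higher in tdT+, adjusted p = 0.0463). Dusp1, at 0.19 and 0.70, lay above the value of every one of these 12 genes in both populations, but a difference between genes was not tested. The part of the collagenase digestion of the dura in these levels was not tested either.

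Of 8 inflammatory genes known to be restrained by Dusp1, 4 rose in tdT+ dCAMs: Il1b by 1.21, Ptgs2 by 3.57, Ccl3 by 2.50 and Ccl4 by 2.29 on the log2 scale (adjusted p = 0.00211, 0.014, 0.00215 and 0.00327). The median was 2.40, against 0.01 over all genes, of which 3.37% were called higher. In tdT− dCAMs Ccl3 rose from 240 ± 176 to 680 ± 257 CPM (adjusted p = 0.0434), Tnf fell by 1.64 (adjusted p = 0.00391), and the median was 1.11, against 0.02 over all genes, of which 7.2% were called higher and 4.27% lower. Il1b was also lower in tdT+ than in tdT− CTL libraries (log2 fold change -1.25, adjusted p = 0.00339), with 637 ± 238 against 1517 ± 558 CPM. Glucocorticoids also induce Dusp1. Of 7 genes that glucocorticoids induce, Fkbp5 and Zbtb16 rose in tdT− dCAMs by 3.29 and 4.57 (adjusted p = 0.0163 and 0.0348) and Sgk1 in tdT+ dCAMs by 1.18 (adjusted p = 0.0111), while Tsc22d3 (GILZ) stood at 1219 to 1349 CPM as group means and, with Klf9, was not called.

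**Figure D4:**
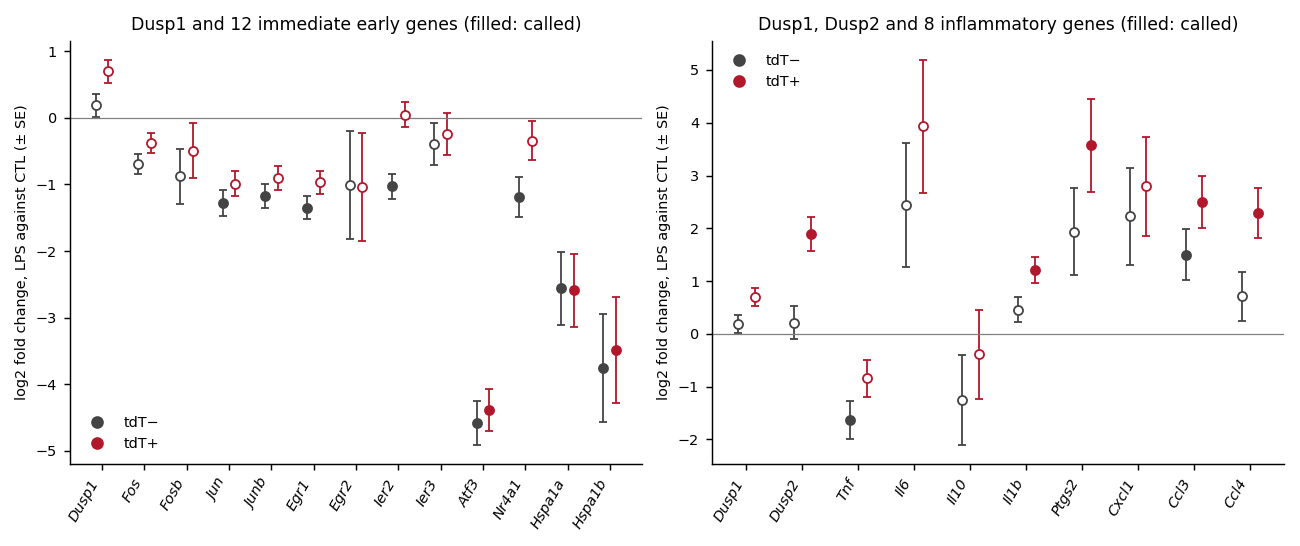
Log2 fold change with LPS (y axis, ± SE) in tdT− (grey) and tdT+ (red) dCAMs for Dusp1 beside 12 immediate early genes (left) and for Dusp1 and Dusp2 beside 8 inflammatory genes (right); filled points are called. Dusp1 at 0.19 and 0.70 lies above the immediate early genes, of which 8 are filled in tdT− and 3 in tdT+ dCAMs, and Dusp2 at 1.90 is filled in tdT+ beside Il1b, Ptgs2, Ccl3 and Ccl4.

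The genes whose level over the 20 libraries was most like that of a member were found among 5819 others whose log2 CPM averaged 4 or more. Dusp2 was most like Il1b, Fgr and Plac8, with Pearson r of 0.91, 0.91 and 0.90 over the libraries, 0.65, 0.75 and 0.33 once group means were removed, and 0.91, 0.86 and 0.85 without the 2 libraries farthest from the median of Dusp2. Plac8 is on the monocyte marker list. Dusp1 was most like Zfand5, Etf1 and Emp1 (r = 0.86, 0.86 and 0.85). Without the tdT+ CTL libraries of mice 174 and 179 these became 0.83, 0.52 and 0.60. Dusp5 was most like Hmga1, Magohb and Ergic1 (r = 0.97, 0.96 and 0.96), values that became 0.83, 0.84 and 0.82 without 2 libraries, among them the tdT− CTL library in which Dusp5 was at 0. Dusp6 was most like Pak1, Prkcb and Hgsnat (r = 0.89, 0.85 and 0.82), or 0.84, 0.76 and 0.72 without 2 libraries. Among the members themselves, Dusp1 and Dusp2 had r = 0.72, and 0.48 with group means removed, while Dusp2 and Dusp6 had r = -0.57 and -0.19. These correlations describe libraries that share mice, depth and treatment.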

How the data were processed

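The authors deposited raw counts per gene, made per the labels with bcl2fastq 2.20, STAR 2.7.11a and featureCounts 2.0.6 (DESeq2 1.46.0 is also named). Libraries were amplified by PCR without molecular identifiers, so intervals and floors cover counting error only, and a floor of 3 counts per library was used. The methods name 2 genome builds, and which one these counts used is not given in the sources used here; gene lengths and overlaps come from GENCODE M21 (GRCm38) and promoters from RefSeq (GRCm38.p6). Groups came from the labels.

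Genes with a total of at least 10 counts were scaled by TMM and fitted over the 20 libraries, each group having its own mean, by the quasi-likelihood test of edgeR 4.0.16 (R 4.3.3), and p-values were adjusted over 16632 genes after Benjamini-Hochberg. A call required an adjusted p below 0.05 together with a log2 fold change beyond 1 in size. CPM are TMM-scaled. Correlations used log2 CPM with a prior count of 2. Per-mouse ratios used 0.5 CPM as pseudocount. DESeq2 1.42.0, limma 3.58.1, other scalings, filters and sample sets were alternatives.

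Both libraries of a mouse are paired, since their labels carry the same number. Deviations from the group means over 5823 genes correlated within mice at r = -0.0046 to 0.0461 in CTL and 0.228 to 0.449 in LPS mice. The mouse as a block was an alternative, and a limma-trend fit with that block was added after the data were seen. Dusp1 was left out of limma-voom with the block, in which its precision weights spanned a factor of over 1000 (53 genes did). The 8 members and the gene lists were chosen with earlier results of these data known. Named genes were all members, the up to 4 most abundant genes of each list, list genes called between populations or in the difference, and the 3 genes most like each member averaging at least 4 in log2 CPM. Other list genes that were called (Mapk8, Mapk11, Mapk13, Map3k5, Fosl1, Atf3, Nr4a1, Hspa1a, Hspa1b, Zbtb16 and Tnf) were added after their values were seen. Of the genes this rule names, 1 is not reported here.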

Additional observations from a re-analysis of the deposited data

Results flagged for a closer look

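In 6 of 30 groups of 5 libraries in which a member's values varied, 1 library lay far from the other 4 by Dixon's test (critical value 0.71), which chance gives in about 1 of 20 groups of normal values. For Dusp4 and Dusp14 the other 4 libraries were at 0, which fixes the ratio at 1.0, so that rate does not apply to them. The highest libraries were Dusp10 in tdT− CTL (mouse 178, 48.7 CPM), Dusp16 in tdT− CTL (mouse 175, 18.7 CPM) and in tdT+ LPS (mouse 56, 55.9 CPM), Dusp5 in tdT+ CTL (mouse 178, 52.8 CPM), Dusp4 in tdT− LPS (mouse 56, 1.34 CPM) and Dusp14 in tdT+ LPS (mouse 61, 0.113 CPM). The last is 2 counts, under the floor.

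For Dusp2 the per-mouse log2 ratio of tdT+ to tdT− was 1.62 higher in LPS than in CTL mice (means -0.25 ± 0.20 and -1.87 ± 0.97, SD, n = 5 mice each, two-sided exact permutation p = 0.00794, unadjusted). That p is the smallest that 5 against 5 mice allow, and 6 members were so tested. This test was added after the data were seen and uses the values behind the calls on Dusp2. The fit over all genes did not call the difference of the LPS effects (adjusted p = 0.064).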

How the results depend on the processing

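Of 607 log2 fold changes recomputed for 6 members under other settings, 565 kept their direction and their side of the threshold, 23 became called, 2 lost a call and 17 changed sign. The number of members called with LPS in tdT− dCAMs, 0, was 1 with DESeq2 and with the mouse as a replicate block in limma-voom and limma-trend, and 0 to 1 when a mouse was left out. In tdT+ dCAMs the count of 1 became 2 with DESeq2 and with quality weights, 3 in the libraries of the comparison alone, and 1 to 2 when a mouse was left out. Between populations in CTL mice the count of 1 became 0 in the 10 libraries alone and with the replicate block within treatment, 3 with the replicate block in limma-voom and limma-trend, and 1 to 2 when a mouse was left out. For the difference of the LPS effects the count of 0 became 1 with DESeq2 and with the stricter filter, and 0 to 2 when a mouse was left out. Pairing by the block changed no call other than those given here and beside Dusp2, Dusp10 and Dusp16. The cause of these changes was not tested.

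The sign changes were in values that were not called. Dusp10 with LPS in tdT− dCAMs was 2.17 and 1.34 with the block in limma-voom and limma-trend and 1.92 with quality weights, and -2.29 to 2.42 when a mouse was left out. Its difference of the LPS effects was -3.69 and -2.78 with the block in limma-voom and limma-trend, -3.28 with quality weights and -2.01 from per-mouse ratios, and ran from -4.09 to 1.09 without a mouse. Dusp5 was 0.57 and 0.34 with these blocks between populations in CTL mice, and its difference of the LPS effects was -0.66 and -0.47 with them and -0.18 from per-mouse ratios. Without a mouse, Dusp6 with LPS in tdT− dCAMs ran from -0.44 to 0.12, and in LPS mice tdT+ against tdT− ran from -0.18 to 0.01 for Dusp5 and from -0.37 to 0.29 for Dusp16.

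Over all genes the called count ran from 891 (libraries alone) to 4523 (block) around 1907 for LPS in tdT− dCAMs, from 694 to 3155 around 979 in tdT+ dCAMs, from 3 to 2245 around 712 and from 1 to 137 around 5 between populations in CTL and LPS mice, and from 63 to 744 around 209 for the difference. Other scalings moved the median of all genes by at most 0.09 (log2) in size. Members with few counts, mainly in tdT− CTL libraries, were measured with the least precision.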
